A study of Mus musculus with 48 samples.

Results

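The cytoplasmic mRNA response to N6L was measured in 6 of the 12 samples of the series, the cytoplasmic RNA of 3 N6L-treated and 3 non-treated (NT) cultures of mPDAC cells. The samples were taken by their labelled compartment, cytoplasm, and by their labelled treatment, control or nucleolin inhibitor, and no measured value entered the choice. mPDAC is a cell line from mouse pancreatic ductal adenocarcinoma, and N6L is a synthetic pseudopeptide that binds nucleolin. The labels give every sample, treated or not, a genetic background of FVB/N x C57BL6 and an age of 8 weeks. N6L was given at 50 µM for 48 h. Cultures of both groups received emetine, which holds ribosomes on mRNA, before lysis, and nuclei and mitochondria were then spun out of the lysate. The other 6 samples are polysomal RNA from the lysates of the same 6 cultures. The model is 1 cell line grown in dishes, without the stroma, vessels and immune cells of a tumor. The study asked how an antagonist of nucleolin restrains the growth of these cells.

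Nucleolin (Ncl) is an abundant nucleolar RNA-binding protein that takes part in ribosomal DNA transcription, in the processing of pre-ribosomal RNA and, outside the nucleolus, in the stability and translation of mRNAs. The amount of an mRNA in the cytoplasm is set by its transcription, its export and its decay. Sequencing of poly(A) RNA gives the share of each mRNA in the pool, so every change below is a change in share, and from bulk RNA a change in the number of expressing cells and a change in RNA per cell cannot be told apart. Levels are counts per 1000000 library counts (CPM), with library totals scaled by the TMM factors, and changes are log2 fold changes of N6L over NT with their standard error. A gene is called where its Benjamini-Hochberg adjusted p is under 0.05.

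The 6 cytoplasmic libraries held 21178243 to 44972333 counts. NT and N6L libraries separated on the first principal component of log2 CPM, which held 64.8% of the variance, and NT 4 lay farther out on it than the other NT libraries (60.8 against 20.5 and 32.3). Of the 16 markers on the ductal epithelial list, 12 passed the filter on low counts. The keratins Krt8, Krt18 and Krt19 of this list were abundant, at 2036 to 3012, 2688 to 3714 and 1108 to 1932 CPM. Epcam, of the same list, was nearly absent, at no more than 0.182 CPM. Of the markers of other cell types, 2 of 13 acinar, 3 of 12 fibroblast, 2 of 13 blood cell and 3 of 10 endothelial markers passed the filter on low counts. The summed level of the acinar list was 34.1 to 45.7 CPM in NT and 30.1 to 39.7 CPM in N6L, and that of the endothelial list 2.95 to 3.36 CPM and 2.38 to 3.25 CPM. The summed level of the fibroblast list was 1.32 to 1.53 CPM in NT and 1.38 to 1.76 CPM in N6L, and that of the blood cell list 2.77 to 3.81 CPM and 2.81 to 3.49 CPM. The acinar enzyme gene Cpa1 was at 0 in all 6 libraries, and Col1a2 and Ptprc did not exceed 0.0251 and 0.0908 CPM. Nothing in the labels states that the cultures were set up separately, so the p-values measure the spread between these samples, which may be technical.

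After 48 h of N6L the cytoplasmic mRNA pool had changed widely and in both directions. Of 13889 genes tested, 3935 (28.3%) were called, 2013 (14.5%) higher and 1922 (13.8%) lower in N6L. Every count of calls in a list below is to be read against these shares. The changes were mostly moderate: the median was 0.90 among the higher and −0.82 among the lower genes, 820 and 589 genes passed a 2-fold change, and 108 and 47 passed a 4-fold change. In 7624 genes (54.9%) the 3 N6L libraries did not overlap the 3 NT libraries, and 3745 of these were not called, so an absence of overlap alone is close to the common case here. Among the 3935 called genes 3879 did not overlap, so an absence of overlap in a called gene adds little to its call. The count of calls fell to 1820 without NT 4, to 1879 without N6L 2 and to 2090 without N6L 3, and the called genes that were still tested all kept their direction in these 3 fits. It rose to 5666 of 13426 genes when the 6 cytoplasmic libraries were fitted alone, without the polysomal libraries that otherwise share the estimate of spread. The split between directions depended on the scaling: 51.2% of the calls were higher with TMM factors, 65.5% with library size alone, where the median over all genes moved from 0.04 to 0.19, and 40.1% with a correction for transcript length and GC content.

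**Figure D1:**
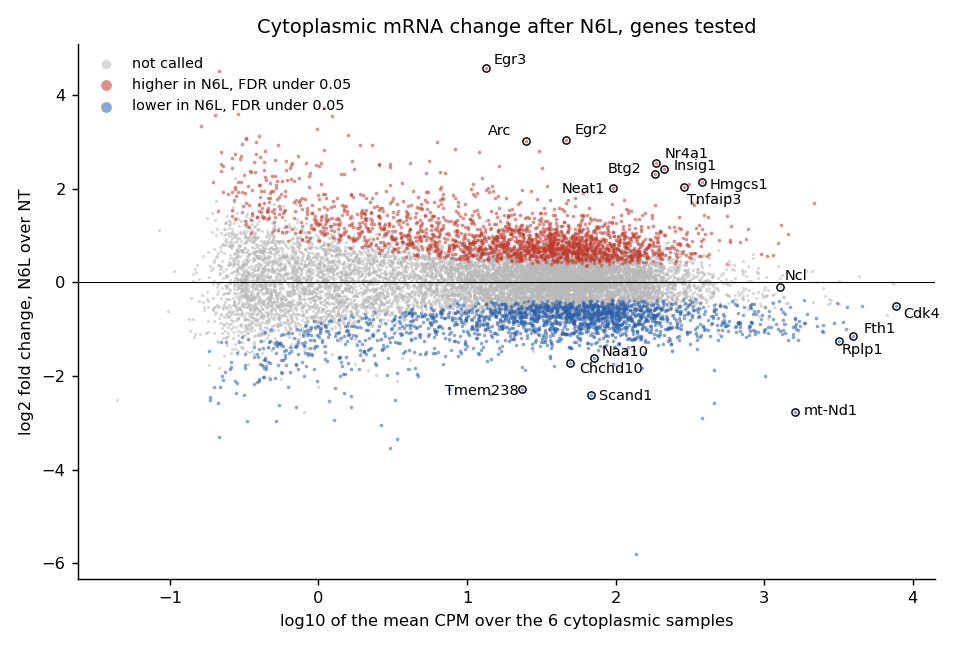
Each point is 1 of 13889 genes, with log10 of its mean CPM over the 6 cytoplasmic samples on the x axis and its log2 fold change, N6L over NT, on the y axis, red where called higher and blue where called lower. Egr3 stands at 4.57, mt-Nd1 at −2.78 and Ncl at −0.11, and the lowest point, at −5.81, is Gm23935, whose NT values ran from 2.91 to 716 CPM and overlapped those of N6L.

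The change went with the length of the transcript. Protein-coding genes were divided into 5 equal classes by their median annotated transcript length. In the class with the shortest transcripts, of 276 to 1528 nucleotides, 966 genes were called lower and 77 higher, with a median of −0.49. In the class with the longest, from 4348 nucleotides, 57 were called lower and 807 higher, with a median of 0.46. The classes between them had medians of −0.13, 0.11 and 0.26. The difference of the longest and the shortest class, in the deviation of each library from the gene means, was 0.152, 0.172 and −0.414 in NT 1, 2 and 4 and 0.952, 0.985 and 0.844 in N6L 1, 2 and 3, so the groups did not overlap and NT 4 was apart from the other NT libraries. In polysomal RNA of the same cultures the medians of the 5 classes lay between −0.13 and 0.09. RNA integrity was not among the values used here, and its part in the gradient was not tested. A fit with an offset for length and GC content in every library brought the medians of the classes to between −0.17 and 0.00. The offset is fitted to the deviations of each library, group difference included, so class medians near 0 follow from how it is made. A change in the cells that went with length would be removed as well. Where a median or a count of a list given below differs by over 1.5 times in the fit with the offset, that value is given beside it.

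**Figure D2:**
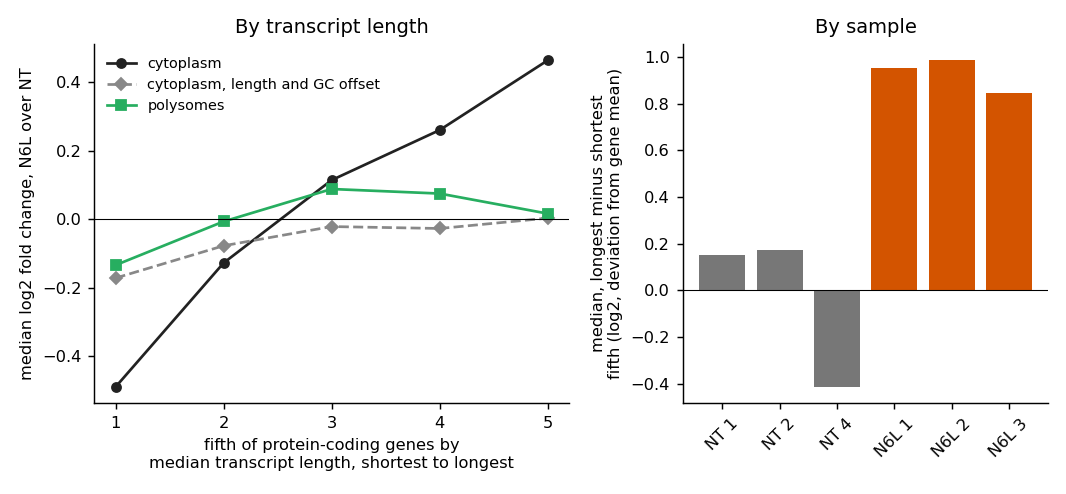
Left, the median log2 fold change, N6L over NT, in 5 length classes of protein-coding genes from the shortest to the longest transcripts, in the cytoplasm, in the cytoplasm with the length and GC offset and in polysomes. Right, the median deviation of the longest class minus that of the shortest in each cytoplasmic sample, a log2 value: the 3 N6L samples lie between 0.844 and 0.985 and the 3 NT samples between −0.414 and 0.172.

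Immediate-early genes, which serum, growth factors and stress induce within minutes without new protein synthesis, had the highest median of the lists. Of the 26 members tested, 20 were called higher and none lower, against 14.5% higher among all genes. In 22 members all N6L libraries lay above all NT libraries, where 54.9% of all genes had no overlap in 1 direction or the other. The median change was 1.25, or 1.20 with the length and GC offset. Their summed level was 4857 to 6193 CPM in NT and 10960 to 12510 CPM in N6L. Leaving out any library left 17 or 18 members called higher.

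Egr3, of the Egr family of zinc finger transcription factors, led the list. Egr3 was at 0.855, 1.95 and 0.451 CPM in NT 1, 2 and 4 and at 23.7, 24.8 and 29.0 CPM in N6L 1, 2 and 3, a 23.8-fold difference (log2 4.57 ± 0.45, adjusted p = 0.000203). Egr2 rose from 8.95, 14.2 and 6.76 CPM to 88.1, 80.5 and 79.1 CPM (log2 3.05 ± 0.39, adjusted p = 0.000697). For both genes the lowest N6L value was several times the highest NT value. Egr1, the most abundant member, rose from 1262, 1174 and 628 CPM to 3120, 3421 and 3345 CPM, a change of 1.69 ± 0.29. The orphan nuclear receptors Nr4a1 and Nr4a3 rose by 2.54 ± 0.30 and 3.56 ± 0.45, Nr4a1 from 54.7, 67.0 and 43.1 CPM to 209, 356 and 396 CPM and Nr4a3 from at most 0.272 CPM to 1.22 to 2.95 CPM. Of the AP-1 subunits, Jun rose by 1.64 ± 0.20 and Fos by 1.40 ± 0.20, while Fosl1 was at 285 to 359 CPM in NT and 243 to 288 CPM in N6L (log2 −0.29, adjusted p = 0.141). Btg2, an antiproliferative gene that p53 and growth factors both induce, rose by 2.31 ± 0.31, from 55.6, 90.4 and 40.3 CPM to 309, 308 and 305 CPM, and Arc, a growth factor and synaptic immediate-early gene outside the list, by 3.03 ± 0.28. Egr1, Fos, Jun and Fosl1 were picked for mention after their values were seen.

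Immediate-early promoters commonly carry CArG boxes, which serum response factor binds, and cyclic AMP response elements (TGACGTCA), which CREB binds. Both were searched on both strands in the 250 bases before the annotated start, in the RefSeq promoter windows of GRCm38. A CArG box was found in 2 of 20 immediate-early genes with a window, Egr2 and Srf, and in 1.43% of the 10092 tested genes with one, and the cyclic AMP response element in 2 of 20, Maff and Btg2, and in 3.11%. A match of letters is a description and does not show binding. Shown are the promoters of the 2 genes with a match and the largest change, with the match in capitals, from chr10:67537439-67537558 (plus strand, 1 of 5 annotated starts of Egr2) and chr1:134079258-134079377 (minus strand).
Egr2: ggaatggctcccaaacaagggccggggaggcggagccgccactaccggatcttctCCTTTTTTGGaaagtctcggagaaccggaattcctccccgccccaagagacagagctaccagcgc
Btg2: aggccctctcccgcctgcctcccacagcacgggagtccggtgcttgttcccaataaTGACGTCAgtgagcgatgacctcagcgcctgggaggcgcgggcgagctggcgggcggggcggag

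Phosphatases and adaptors that are induced by ERK and dampen it rose in part. Of 15 tested, 8 were called higher and 1 lower, the latter lost without NT 4 or any N6L library, with a median of 0.60 (0.39 with the offset), and 5 were called higher without N6L 2 and 4 without NT 4. Dusp4 and Dusp1, dual-specificity phosphatases that act on MAP kinases, rose by 1.76 ± 0.29 and 1.66 ± 0.27. Dusp4 was at 46.0, 72.8 and 37.2 CPM in NT and 218, 155 and 156 CPM in N6L, and Dusp1 at 102, 104 and 57.8 CPM in NT and 246, 292 and 298 CPM in N6L. Dusp8 rose by 1.15 ± 0.26. The groups did not overlap for any of the 3. Of the EGF-family ligands and receptors, 1 of 10 was called higher and 1 lower, against 0 higher and 4 lower with the offset, and the higher call was lost without each library other than N6L 1. Areg, the ligand amphiregulin, fell by 0.72 ± 0.15, from 159, 188 and 161 CPM to 92.1, 108 and 109 CPM.

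Genes of cholesterol synthesis and uptake were the next group. These genes are controlled by the transcription factor Srebf2, which the sterol sensors Scap and Insig1 hold in the endoplasmic reticulum while cholesterol is plentiful. Of 27 tested, 21 were called higher and none lower, with a median of 0.97 (0.88 with the offset, where 1 was called lower), and the summed level was 1431 to 1918 CPM in NT and 3499 to 3920 CPM in N6L. Between 17 and 20 members were called higher when 1 library was left out. Insig1 rose from 64.3, 94.0 and 42.9 CPM to 305, 404 and 369 CPM (log2 2.42 ± 0.28, adjusted p = 0.000486). Hmgcs1, the synthase that makes HMG-CoA, rose from 128, 173 and 123 CPM to 528, 698 and 653 CPM (log2 2.15 ± 0.29, adjusted p = 0.000789). Idi1, the isopentenyl diphosphate isomerase, had the largest change, 2.84 ± 0.43, from 1.59, 3.40 and 1.15 CPM to 13.7, 19.1 and 11.02 CPM. No N6L library overlapped an NT library for these genes. The squalene epoxidase Sqle rose by 1.19 ± 0.19. Scap itself was at 24.3 to 29.0 CPM in NT and 18.9 to 24.6 CPM in N6L (log2 −0.30, adjusted p = 0.201). Sqle and Scap were picked after their values were seen.

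The sterol regulatory element of the form TCACNCCAC was present on either strand in the 250 bases before the start in 1 of 19 members with a window, Hmgcs1, and in 1.24% of the 10092 genes. The Hmgcs1 promoter is shown as that of the only member with a match. The element is in capitals, from chr13:119690158-119690277 (GRCm38, plus strand, RefSeq).
Hmgcs1: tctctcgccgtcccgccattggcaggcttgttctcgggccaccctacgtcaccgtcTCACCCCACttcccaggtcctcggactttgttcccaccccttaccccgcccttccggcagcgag

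Fatty acid synthesis genes and targets of Srebf1, the lipogenic relative of Srebf2, rose in part. Of 17 tested, 9 were called higher and none lower, with a median of 0.71 (0.39 with the offset, where 1 was called lower), and 5 were called higher without NT 4. Acss2, which makes acetyl-CoA from acetate in the cytosol, rose from 5.65, 5.99 and 4.81 CPM to 19.4, 22.9 and 24.5 CPM, with 1 of the 3 smallest adjusted p-values among the higher genes (log2 2.02 ± 0.18, adjusted p = 0.00015). Lpin1, a phosphatidate phosphatase, rose by 1.96 ± 0.28 and the fatty acid desaturase Fads2 by 1.79 ± 0.29. Srebf1 overlapped between the groups, at 102 to 126 CPM and 121 to 141 CPM (log2 0.22, adjusted p = 0.303), and was picked after its values were seen.

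Chemokine genes and feedback inhibitors of NF-kB, the transcription factor of inflammatory signalling, rose in part. Of 31 tested, 12 were called higher and none lower, with a median of 0.57 with and without the offset. Without N6L 2 there were 6 such calls and without NT 4 there were 7. Tnfaip3, the ubiquitin-editing inhibitor of NF-kB known as A20, rose from 122, 151 and 63.7 CPM to 455, 466 and 463 CPM (log2 2.04 ± 0.35, adjusted p = 0.00222). Lif, a cytokine of the interleukin 6 family that pancreatic tumor cells secrete, rose from 10.8, 9.30 and 8.91 CPM to 16.9, 32.8 and 35.5 CPM (log2 1.55 ± 0.31). Nfkbia, which holds NF-kB in the cytosol, rose by 0.80 ± 0.18. The groups stayed apart for these 3 genes, with N6L 1 the lowest treated value of Lif. The neutrophil chemokine gene Cxcl2 rose by 1.66 ± 0.44, but its adjusted p of 0.0145 became 0.0525 without NT 4 and 0.057 without N6L 2, where the change was 1.24 and 1.53. Il6 stayed under 0.510 CPM in every library (log2 1.73, adjusted p = 0.0849). Nfkbia and Il6 were picked after their values were seen.

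Of the interferon-stimulated genes, 12 of 31 tested were called higher and none lower, with a median of 0.71 (0.41 with the offset, where 1 was called lower), although their summed level hardly differed, at 559.8 to 663.8 CPM in NT and 656.1 to 703 CPM in N6L. There were 5 higher calls without N6L 2, 6 without N6L 3, 6 without NT 4 and 7 without NT 1, and DESeq2 called 11 higher and 4 lower. Irf1, a transcription factor that interferon gamma and NF-kB induce, rose from 57.5, 69.0 and 50.6 CPM to 138, 161 and 178 CPM (log2 1.43 ± 0.17, adjusted p = 0.000493). Stat2, a subunit of the factor that type I interferons activate, rose by 1.15 ± 0.19, from 12.03, 12.6 and 9.96 CPM to 26.6, 24.4 and 25.7 CPM. Mx2 and Parp14 rose by 1.57 ± 0.31 and 1.88 ± 0.34 but remained between 1.22 and 3.54 CPM in N6L. Stat2 was picked after its values were seen.

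The NF-kB consensus was found within 250 bases before the start, on either strand, in 12 of 22 members of the chemokine list with a window (54.5%) against 5.51% of the 10092 genes, and 7 of these 12 were called higher. The median change was 0.83 in members with a match and 0.31 in the others. The interferon-stimulated response element (GAAANNGAAA) was found in 9 of 23 interferon-stimulated genes (39.1%) against 2.98%, but only 2 of the 9 were called higher, and the median was −0.26 in members with a match and 0.84 in the others. The promoters of Tnfaip3 and Stat2 are shown as called members that hold a match, in capitals, from chr10:19015411-19015545 (minus strand, 1 of 2 annotated starts, 2 matches) and chr10:128270248-128270367 (plus strand), both GRCm38 and RefSeq.
Tnfaip3: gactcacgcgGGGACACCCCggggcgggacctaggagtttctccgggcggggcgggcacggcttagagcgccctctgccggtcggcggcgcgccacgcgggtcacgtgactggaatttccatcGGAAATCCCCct
Stat2: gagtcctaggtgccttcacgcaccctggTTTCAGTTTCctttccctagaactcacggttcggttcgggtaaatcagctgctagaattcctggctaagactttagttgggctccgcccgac

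The mRNA of the target of the compound was not called. Ncl was at 974, 1556 and 1477 CPM in NT and 1157, 1297 and 1261 CPM in N6L, with overlapping groups (log2 −0.11 ± 0.31, adjusted p = 0.812). In the fit with the length and GC offset, into which its median annotated transcript length of 8202 nucleotides entered, Ncl was called lower (log2 −0.73, adjusted p = 0.0219). Npm1, the nucleolar chaperone nucleophosmin, was at 1532 to 1840 CPM in NT and 1190 to 1283 CPM in N6L, apart but not called (log2 −0.44, adjusted p = 0.210). Fbl, the methyltransferase fibrillarin, fell from 86.2, 89.2 and 122 CPM to 64.0, 59.5 and 66.4 CPM (log2 −0.65 ± 0.17, adjusted p = 0.0147), a call that was lost without NT 4 (log2 −0.51, adjusted p = 0.061) and with the offset (log2 −0.28). Of the 12 nucleolar proteins and partners of the small nucleolar RNPs, 7 were called lower and none higher, with a median of −0.54 (−0.57 with the offset), and 4 were called lower without NT 4. The RNP proteins Nhp2, Snu13 and Gar1 fell by 1.33 ± 0.23, 1.08 ± 0.19 and 0.93 ± 0.22, and Nhp2 went from 243, 227 and 360 CPM to 112, 101 and 116 CPM.

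Ribosomal protein mRNAs were lower nearly throughout. Of 32 small-subunit genes tested, 31 were called lower and none higher, and of 45 large-subunit genes 44 were called lower and none higher, against 13.8% of all genes. The medians were −0.92 and −0.89, with ranges of −1.22 to −0.31 and −1.61 to −0.38. The small-subunit mRNAs together were 46270 to 59180 CPM in NT and 25100 to 29360 CPM in N6L, and the large-subunit mRNAs 59260 to 74650 CPM and 33790 to 39560 CPM. These transcripts are short, with median lengths of 744 and 780 nucleotides, and with the length and GC offset the medians were −0.47 and −0.51 and 26 and 34 members remained called lower. In the polysomes both medians were −0.33. Leaving out 1 library left 27 to 31 and 33 to 42 lower calls. Ribosomal protein genes have many processed pseudogenes, and the handling of multimapping reads is not given in the sources used here, which leaves single values uncertain.

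Rplp1, an acidic stalk protein of the large subunit, fell from 4675, 3751 and 5015 CPM to 2168, 1611 and 1844 CPM (log2 −1.26 ± 0.18, adjusted p = 0.00113). Rps20, a protein of the small-subunit head, fell from 2095, 2034 and 2409 CPM to 1073, 893 and 949 CPM (log2 −1.17 ± 0.16, adjusted p = 0.000949), and Rps2 from 2335, 1977 and 2833 CPM to 1164, 912 and 987 CPM. In each of these genes every N6L library lay below every NT library, and the means differed by more than 2-fold. Rpl12 fell by 1.00 ± 0.18. Rplp0, the scaffold of the stalk and among the 10 most abundant mRNAs, fell by only 0.53 ± 0.16, with an adjusted p of 0.0281 that rose to 0.103 without N6L 3, 0.086 without N6L 2, 0.0804 without NT 4, 0.055 without NT 2 and 0.0602 with the offset.

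Ribosomal protein mRNAs are known for a terminal oligopyrimidine tract, a C at the first base followed by an unbroken run of pyrimidines, through which mTORC1 and the binding protein Larp1 control their translation and stability. At the RefSeq start a C with a run of at least 5 pyrimidines was found in 14 of 56 ribosomal protein genes with a window (25%) and in 3.08% of all 10092. No match says only that these letters are not at the annotated start. The median change was −1.03 in ribosomal protein genes with the run and −0.90 in those without. Among other genes, the 297 with the run had 34 higher and 48 lower calls and a median of 0.02, and the 9781 without it 1471 higher and 1356 lower calls and a median of 0.06. Starts with the run are shown for 5 called members, from 5 bases before to 20 bases after the start, with the run in capitals, at chr7:141447646-141447670 (plus), chr9:120571512-120571536 (plus), chr2:180257374-180257398 (plus), chr17:33955646-33955670 (minus) and chr4:86857348-86857372 (minus) of GRCm38.
Rplp2: tcttcCTTTCgccgccggacgccgc
Rpl14: tctctCTTCTCgctgagcgccgcca
Rps21: ccgccCTCCTgcccaatagtgctgc
Rps18: ccgctCTCTCTTCCacaggaggcct
Rps6: cgggcCTCTTTTTCgtgacgcctcc
These 5, picked after their values were seen, fell by 1.11 ± 0.26, 1.09 ± 0.22, 1.04 ± 0.23, 1.00 ± 0.16 and 0.79 ± 0.15 in this order. Rps18 and Rps6 have the longest runs of the 5, and a relation of run length to change was not tested.

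The rest of the translation machinery changed less. Of 61 ribosome biogenesis factors of the nucleolus, 13 were called lower and none higher, with a median of −0.19 (−0.30 with the offset). This count was 5 without NT 4 or N6L 3, 6 without N6L 2, 8 without NT 1 and 26 with the length and GC offset. Of 35 RNA polymerase I and III genes, 6 were called lower and 2 higher, near or under the 13.8% and 14.5% of all genes. The higher calls were 0 when NT 1, NT 4 or any N6L library was left out and 1 with the offset. Polr1d, a subunit that both polymerases share, fell by 0.98 ± 0.20. Of 40 initiation factors and regulators, 13 were called lower and 1 higher, a call lost without each library other than NT 2, with 5 lower calls without any 1 of the N6L libraries, 6 without NT 4 and 7 without NT 1. Eif4ebp1, whose protein is phosphorylated by mTORC1, fell from 493, 575 and 709 CPM to 284, 241 and 273 CPM (log2 −1.16 ± 0.22, adjusted p = 0.00328), and the eIF3 subunit gene Eif3k from 269, 266 and 331 CPM to 155, 127 and 149 CPM. Eif3a and Eif3c, core subunits of eIF3, were not called (log2 0.70, adjusted p = 0.200, and log2 0.01, adjusted p = 0.988), and their groups overlapped. Of 14 genes listed as elongation factors and poly(A)-binding proteins, 5 were called lower (8 with the offset), among them Eef1g (log2 −0.95 ± 0.17). Eef1e1, which is on the list by its symbol only, was also called lower (log2 −0.96 ± 0.15). Eef1a1 and Eef2, the elongation factors themselves and among the 10 most abundant mRNAs, overlapped between the groups (log2 −0.03 and 0.15). Of 23 cytosolic tRNA synthetase genes, 4 were called lower, 2 when NT 2, NT 4 or any N6L library was left out, and 14 with the offset.

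Of 30 genes of mTORC1 signalling, 7 were called higher and 4 lower, with a median of 0.13, which was 0.08 without NT 4 and 0.00 with the offset. Without NT 4 there were 2 higher calls, and 4 without any 1 of the N6L libraries, and there were 1 or 2 lower calls without NT 1 or any N6L library. Mtor, the kinase, was at 34.6, 31.6 and 27.3 CPM in NT and 52.97, 46.7 and 51.4 CPM in N6L (log2 0.69 ± 0.17, adjusted p = 0.0105), but the adjusted p was 0.063 without NT 4 (log2 0.56). Sesn1, a stress-induced inhibitor of mTORC1, rose by 1.23 ± 0.20, from 5.59, 6.13 and 4.86 CPM to 11.4, 14.1 and 13.4 CPM. Larp1 overlapped, at 168 to 213 CPM in NT and 186 to 245 CPM in N6L (log2 0.11, adjusted p = 0.702).

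**Figure D3:**
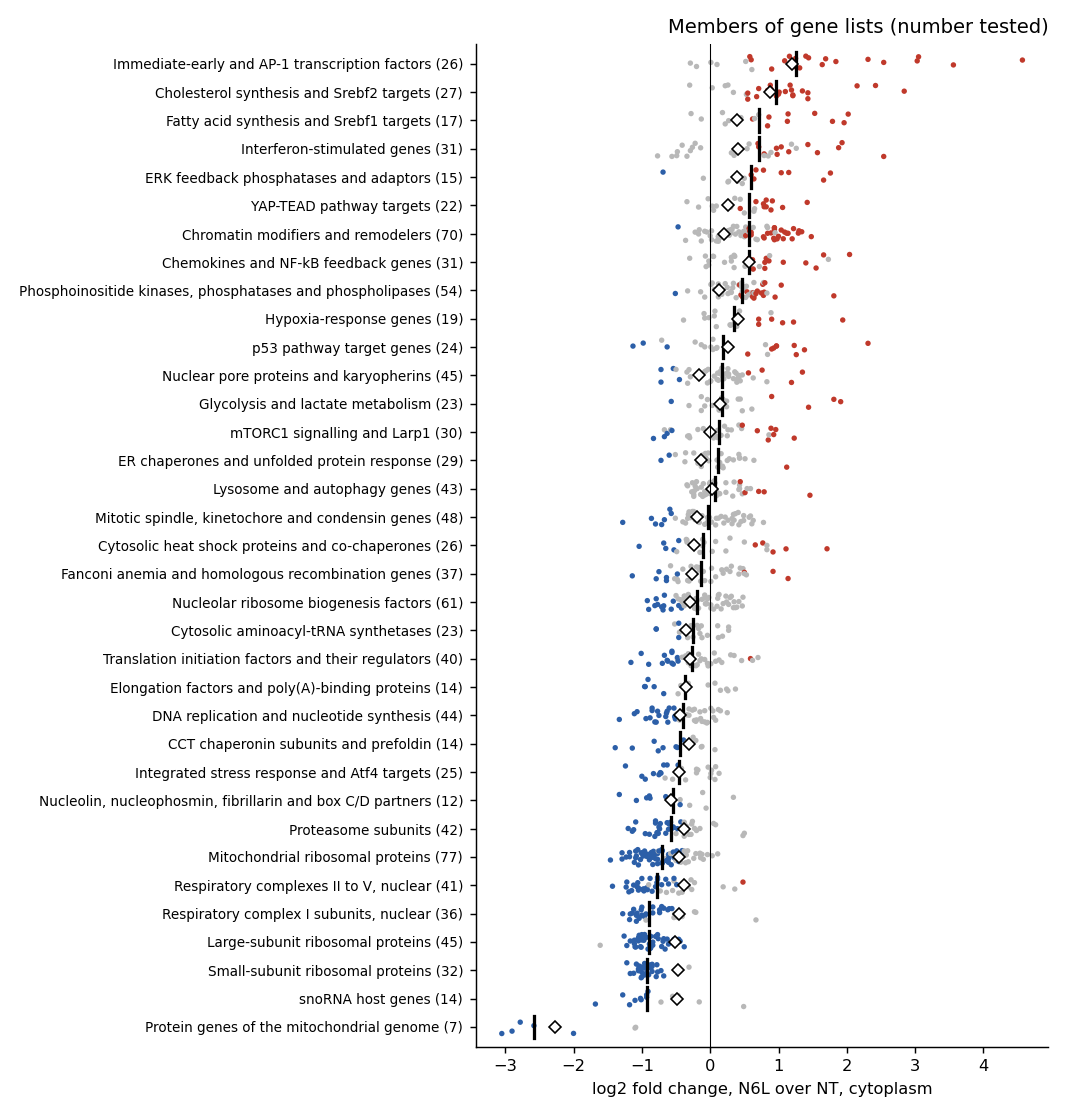
Each point is a member of a gene list at its log2 fold change, N6L over NT, in the cytoplasm, red where called higher, blue where called lower and grey where not called, with the number tested in brackets. The black bar is the median of the list and the open diamond the median with the offset for length and GC content. The bars run from 1.25 for immediate-early genes to −0.92 for small-subunit ribosomal proteins and −2.58 for the mitochondrial genome.

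Nuclear genes for the mitochondrial energy machinery were lower. Of 36 subunits of respiratory complex I, 26 were called lower and none higher, and of 41 subunits of complexes II to V, 27 lower and 1 higher, a call lost without each library other than NT 2, with medians of −0.89 and −0.78. Of 77 mitochondrial ribosomal proteins, 54 were called lower and none higher, with a median of −0.71. Most of these transcripts are short, with a median length of 810, 745 and 1226 nucleotides in the 3 lists, and with the offset the medians were −0.46, −0.38 and −0.46 and 18, 20 and 49 members were called lower. The counts depended on the library set: without NT 4 they were 7, 14 and 21, without N6L 1 they were 9, 15 and 29, without N6L 2 they were 13, 18 and 29, and without N6L 3 they were 15, 17 and 28. Uqcrq, a subunit of complex III, fell from 484, 427 and 644 CPM to 186, 185 and 207 CPM (log2 −1.43 ± 0.25, adjusted p = 0.00238). Ndufa5 of complex I fell by 1.28 ± 0.29 and Cox5b of complex IV by 1.23 ± 0.28. Mrpl52, of the mitochondrial large subunit, fell from 150, 156 and 276 CPM to 64.0, 69.2 and 78.9 CPM (log2 −1.46 ± 0.28). The NT values of these genes were highest in NT 4, and the groups did not overlap.

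Messages of the mitochondrial genome itself had the lowest median of all lists. Of its 13 protein genes, 7 could be tested, 5 were called lower and the median was −2.58, or −2.27 with the offset. Of the other 6, mt-Co2 reached 0.0305 CPM in 1 library and the rest were at 0. mt-Nd1 fell from 3339, 1469 and 3613 CPM to 581, 421 and 225 CPM (log2 −2.78 ± 0.48, adjusted p = 0.00226), mt-Nd2 by 2.90 ± 0.52 and mt-Nd6 by 3.05 ± 0.55. mt-Co1 was at 540 to 834 CPM in NT and 190 to 433 CPM in N6L, apart but not called (log2 −1.10 ± 0.41, adjusted p = 0.0559). With each library left out in turn, 5 members were called lower. Mitochondria had been spun out of these lysates, so the values are for what remained in the cytoplasmic fraction, and a difference in the carry-over of mitochondria and a difference in the cells cannot be told apart. mt-Co1 was picked after its values were seen.

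Calls were also mostly lower in other housekeeping complexes. Of 42 proteasome subunits and assembly factors, 26 were called lower and none higher, with a median of −0.58 (−0.39 with the offset) and 16 lower calls without NT 4. Psmb3 fell from 155, 132 and 234 CPM to 76.6, 73.0 and 76.7 CPM (log2 −1.20 ± 0.25). Of 14 CCT chaperonin and prefoldin subunits, which fold actin and tubulin, 8 were called lower and none higher, with 4 or 5 lower calls without NT 1 or any 1 of the N6L libraries, and Pfdn6 fell by 1.39 ± 0.29. Of 14 hosts of small nucleolar RNAs, 9 were called lower and none higher, with a median of −0.93 (−0.48 with the offset). Gas5, a noncoding host with an oligopyrimidine tract that accumulates when translation stops, fell from 935, 994 and 1203 CPM to 471, 461 and 453 CPM (log2 −1.18 ± 0.22, adjusted p = 0.00325). Snhg8 fell from 222, 207 and 274 CPM to 94.0, 96.7 and 99.6 CPM, among the 3 smallest adjusted p-values of the lower genes (log2 −1.28 ± 0.14, adjusted p = 0.000444). All N6L values of both lay below all NT values.

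Among stress programs, targets of the integrated stress response fell in part. Atf4 is the transcription factor through which phosphorylation of eIF2 induces amino acid synthesis and transport genes. Of 25 tested genes of this program, 10 were called lower and none higher, with a median of −0.46 (−0.45 with the offset), and 6 without N6L 2. Atf4 itself did not move, at 2154 to 2317 CPM in NT and 2107 to 2399 CPM in N6L (log2 0.01, adjusted p = 0.973), and was picked after its values were seen. Psph, the last enzyme of serine synthesis, fell from 374, 275 and 327 CPM to 138, 136 and 141 CPM (log2 −1.24 ± 0.17, adjusted p = 0.000958). Mthfd2, of mitochondrial folate metabolism, fell by 1.00 ± 0.15 and Trib3, a pseudokinase induced by Atf4 and Ddit3, by 0.95 ± 0.19. The unfolded protein response and endoplasmic reticulum chaperones had 1 higher and 2 lower calls in 29 genes, with 0 or 1 lower when NT 4 or any N6L library was left out and 2 higher without NT 2, and 2 higher and 3 lower with the offset, and Eif2ak3, the eIF2 kinase of the endoplasmic reticulum, rose by 1.12 ± 0.26. Of the heat shock proteins and their partners, 5 of 26 were called higher and 5 lower, the latter 3 without NT 1, NT 4, N6L 2 or N6L 3 and 9 with the offset. The inducible Hspa1a rose from 0.977, 1.18 and 0.951 CPM to 4.78, 2.54 and 2.94 CPM, while the mitochondrial chaperonin partner Hspe1 fell by 1.04 ± 0.19.

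Of the p53 targets, 9 of 24 were called higher and 3 lower, with a median of 0.19 that was 0.12 without N6L 2 and 0.05 without NT 4. There were 5 higher calls without NT 4 and 5 lower calls with the offset. Btg2 led them, followed by Ddit4l (1.38 ± 0.25) and the death receptor Tnfrsf10b (1.26 ± 0.17). Cdkn1a, the p21 inhibitor of cyclin-dependent kinases and the classical target, overlapped, at 117 to 131 CPM in NT and 125 to 131 CPM in N6L (log2 0.04, adjusted p = 0.865), and was picked after its values were seen. Gadd45a, a growth arrest gene, fell from 302, 315 and 253 CPM to 130, 131 and 137 CPM (log2 −1.13 ± 0.15). In the Bcl2 family 4 of 16 members were called higher and 3 lower, with 2 higher without NT 2, NT 4 or N6L 2 and 1 lower without NT 4 or any N6L library. The proapoptotic BH3-only gene Bmf rose from 8.52, 7.13 and 8.71 CPM to 26.8, 29.2 and 29.0 CPM (log2 1.8 ± 0.19, adjusted p = 0.000386) and Pmaip1, known as Noxa, by 0.97 ± 0.21, whereas the effector Bax fell by 0.98 ± 0.19.

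Of the hypoxia and glycolysis genes, 6 of 19 and 4 of 23 were called higher and 0 and 1 lower (1 and 1 with the offset). The hypoxia calls were 3 without N6L 2, and the lower glycolysis call was lost without N6L 2, N6L 3 or NT 4. Epas1, which encodes the hypoxia-inducible factor HIF-2 alpha, rose from 5.31, 5.90 and 6.26 CPM to 19.6, 23.5 and 23.6 CPM (log2 1.94 ± 0.23, adjusted p = 0.000507). Aldoc, an aldolase, and Pfkfb3, which makes the activator of phosphofructokinase, rose by 1.91 ± 0.33 and 1.44 ± 0.20. Targets of the antioxidant factor Nrf2 had 3 of 23 members called higher and 3 lower, close to the 14.5% and 13.8% of all genes. The lower calls were 1 without N6L 3 or NT 4, 5 without NT 2 and 9 with the offset. Gclc, the catalytic subunit for glutathione synthesis, rose by 1.06 ± 0.18, and Fth1, the ferritin heavy chain and among the 10 most abundant mRNAs, fell from 5023, 4596 and 6778 CPM to 2577, 2382 and 2481 CPM (log2 −1.14 ± 0.17, adjusted p = 0.00114). Of 43 lysosome and autophagy genes, 5 were called higher and none lower, under the 14.5% and 13.8% of all genes. There were 3 higher calls without NT 4 or any N6L library and 5 higher and 3 lower with the offset.

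DNA replication and nucleotide synthesis genes fell in part. Of 44 tested, 20 were called lower and none higher, with a median of −0.40 (−0.44 with the offset), and 13 without N6L 2, 11 without N6L 3 and 13 without NT 4. Dut, which removes dUTP, fell from 449, 351 and 563 CPM to 183, 173 and 188 CPM (log2 −1.33 ± 0.21, adjusted p = 0.00169). The E2F site, TTTCGCGC or TTTGGCGC on either strand, was present before the start in 5 of 36 members with a window (13.9%) and in 1.54% of the 10092 genes, and 1 of the 5 was called lower. The median change was 0.05 in members with a match and −0.45 in the others. Gins1, of the replicative helicase, and Rpa3, of the single-strand binding complex, fell by 1.11 ± 0.20 and 1.07 ± 0.18. Among G1 regulators 5 of 27 were called lower and 1 higher, the latter lost without N6L 2 or NT 4, with 2 lower calls when NT 1, NT 4, N6L 2 or N6L 3 was left out and 3 without N6L 1, and 10 lower calls with the offset. Cyclin E1 (Ccne1) fell by 1.10 ± 0.23 and E2f1, which drives replication genes, by 0.82 ± 0.17. Cdk4, the most abundant mRNA of the libraries, was at 8208 to 9961 CPM in NT and 6024 to 6672 CPM in N6L (log2 −0.51 ± 0.16, adjusted p = 0.0279). This call was lost without N6L 1, N6L 2, N6L 3, NT 1 or NT 4, where the change lay between −0.55 and −0.43, and with the offset, where it was −0.24. Mitotic genes had 7 lower calls and none higher in 48 genes, close to the 13.8% lower among all genes, and 13 lower with the offset. Spc24, of the kinetochore, fell by 1.28 ± 0.29. The Fanconi anemia and homologous recombination genes had 6 lower and 3 higher calls in 37 genes and 17 lower and 2 higher with the offset. The shares without the offset were near or under the 13.8% lower and 14.5% higher of all genes. There were 2 or 3 lower calls without NT 1, NT 4, N6L 2 or N6L 3 and 0 or 1 higher without NT 4, N6L 2 or N6L 3.

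Chromatin and phosphoinositide regulators, many with long transcripts, rose in part. Of 70 chromatin modifiers and remodelers, 29 were called higher and 1 lower, the latter lost without N6L 2, N6L 3, NT 1 or NT 4, with a median of 0.57. The median transcript length of this list was 6041 nucleotides, and with the offset the median was 0.20 with 20 higher and 4 lower calls. Without NT 4 there were 8 higher calls, without N6L 2 there were 10 and without N6L 3 there were 16. The acetyltransferase Kat6b rose from 18.1, 19.8 and 11.3 CPM to 39.2, 50.4 and 47.8 CPM (log2 1.48 ± 0.34) and the demethylase Kdm6a by 1.3 ± 0.28. Phosphoinositide kinases, phosphatases and phospholipases had 18 of 54 members called higher and 1 lower, the latter lost without each library, with a median of 0.47 (0.13 with the offset, where 8 were called higher and 4 lower), but 1 higher call without NT 4, 2 without N6L 2, 5 without N6L 3, 6 without N6L 1 and 9 without NT 1. Inpp5f, a phosphoinositide phosphatase, rose by 0.95 ± 0.21. Of the nuclear pore proteins and karyopherins, 4 of 45 were called in each direction, against 2 higher and 12 lower with the offset, none in either without NT 4, 1 or 2 higher without NT 1 or any N6L library, and 2 lower without N6L 2 or N6L 3.

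Targets of the growth regulator YAP had 10 of 22 members called higher and none lower, with a median of 0.57 (0.26 with the offset, where 1 was called lower), but 4 without N6L 2 or NT 4, 5 without N6L 3 and 6 without N6L 1. Ccn1, a matricellular protein, rose from 319, 320 and 274 CPM to 762, 820 and 866 CPM (log2 1.42 ± 0.16, adjusted p = 0.000486), and Ccn2 by 1.06 ± 0.23. Actin cytoskeleton targets of SRF had 3 of 26 called higher and 5 lower, the latter 1 to 3 without NT 1, NT 4 or any N6L library, and 5 higher with the offset. Vcl, the focal adhesion protein vinculin, rose by 1.18 ± 0.27 and Tpm2, a tropomyosin, fell by 0.99 ± 0.24. Of 35 integrin, laminin, collagen and protease genes, 7 were called higher and 2 lower, with 4 higher without N6L 2 or NT 4 and 1 lower without NT 1, NT 4, N6L 1 or N6L 3, and 7 higher and 8 lower with the offset. Thbs1, the matrix protein thrombospondin 1, rose from 4.40, 5.36 and 2.65 CPM to 24.98, 14.05 and 14.7 CPM (log2 2.10 ± 0.40), and Col7a1, the anchoring fibril collagen, fell by 1.28 ± 0.20. Of 16 genes of epithelial-mesenchymal transition, 4 were called higher and 1 lower, with 2 higher without N6L 2 or NT 4 and the lower call lost without each library other than NT 4. Of 12 ductal epithelial markers tested, 3 were called higher and 1 lower, with a median of 0.14. With the offset 4 were called higher and 2 lower, and without N6L 1 or NT 4 only 1 was called higher. Of these markers Sox9, the transcription factor of ductal cells, rose from 32.8, 34 and 25.1 CPM to 66.7, 63.7 and 64.8 CPM (log2 1.09 ± 0.19), and the ductal keratin Krt7 fell from 258, 347 and 448 CPM to 216, 148 and 174 CPM.

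**Figure D4:**
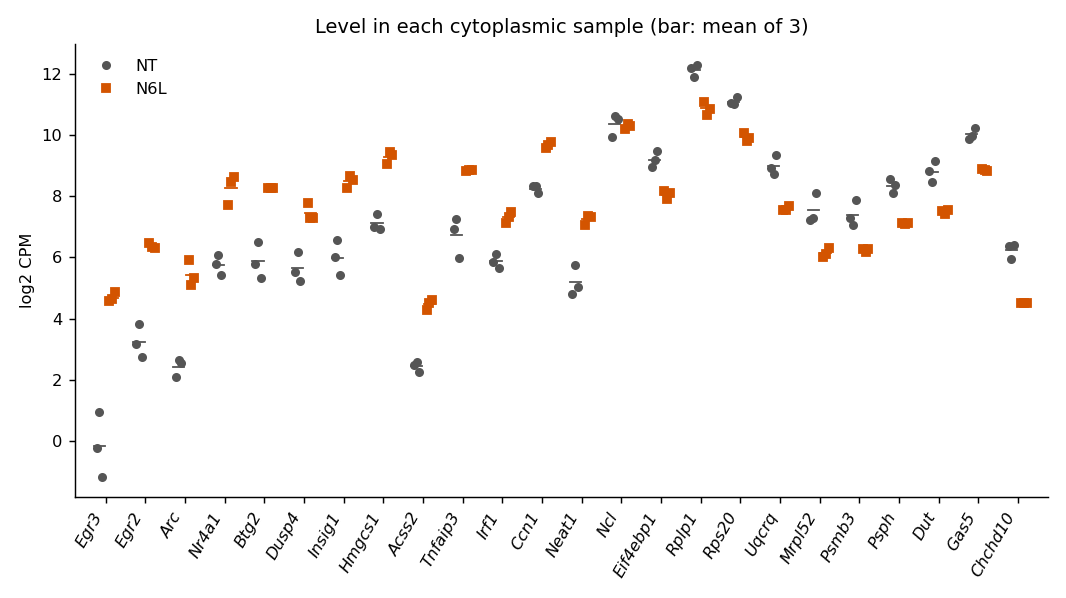
log2 CPM of 24 named genes in the 3 NT (grey circles) and 3 N6L (orange squares) cytoplasmic samples, with a short bar at the mean of the log2 values of each group. The groups are apart for every gene shown except Ncl, the only gene shown that was not called. Among all 3935 called genes 3879 were apart, so this follows from showing called genes. The NT points are more scattered than the N6L points in genes such as Egr3, Tnfaip3 and Mrpl52.

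Beyond the lists, the largest increases among called genes of at least 10 CPM without overlap included Ranbp3l, from 6.08, 10.7 and 6.26 CPM to 38.5, 65.9 and 56.0 CPM (log2 2.80 ± 0.31), the guanine deaminase Gda (2.78 ± 0.39), Dennd4c (2.45 ± 0.40) and the zinc finger genes Zfp955a and Zfp871 (2.49 ± 0.42 and 2.23 ± 0.36). Synpo, an actin-associated protein of chromosome 18, had the smallest adjusted p of all genes, at 10.4, 10.9 and 11.8 CPM in NT and 40.7, 42.0 and 45.8 CPM in N6L (log2 1.96 ± 0.16, adjusted p = 8.89e-05). Neat1, the noncoding scaffold of nuclear paraspeckles, rose from 27.7, 53.7 and 32.6 CPM to 134, 164 and 160 CPM (log2 2.01 ± 0.26, adjusted p = 0.000697). Malat1, another nuclear-retained RNA, was at 43.4 to 74.6 CPM in NT and 60.6 to 68.7 CPM in N6L (log2 0.13, adjusted p = 0.777). Malat1 was picked after its values were seen.

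The largest decreases among called nuclear genes of at least 10 CPM without overlap between the groups were mostly short transcripts. Scand1 fell from 97.8, 49.3 and 195.7 CPM to 14.7, 24.1 and 25.6 CPM (log2 −2.41 ± 0.56, adjusted p = 0.00795) and Tmem238 from 35.6, 19.8 and 61.7 CPM to 7.57, 8.18 and 8.31 CPM (log2 −2.28 ± 0.40). In both genes, as in Gm21887 (−2.38 ± 0.49), NT 4 held the highest value. Chchd10, a protein of the mitochondrial intermembrane space, fell from 82.5, 61.5 and 83.9 CPM to 22.8, 23.0 and 23.0 CPM (log2 −1.73 ± 0.21, adjusted p = 0.000613). Mtln, a mitochondrial micropeptide, fell by 1.62 ± 0.32, the histone variant H2afj by 1.74 ± 0.39, the amino-terminal acetyltransferase Naa10 by 1.63 ± 0.29 and the glutathione transferase Gsta1 by 1.8 ± 0.29. Il1rn, the interleukin 1 receptor antagonist, fell from 26.1, 19.6 and 20.1 CPM to 9.41, 6.46 and 5.50 CPM (log2 −1.63 ± 0.23), and the troponin gene Tnnt2 by 1.8 ± 0.25. The annotated microRNA gene Mir703 fell by 1.88 ± 0.32 but was not called with the offset (log2 −0.99, adjusted p = 0.0605), and in poly(A) libraries its reads come from longer transcripts. Of the abundant messages, Gm42418, whose locus overlaps ribosomal RNA and whose level is uncertain for that reason, ranged from 3110 to 9498 CPM in NT and from 1516 to 4022 CPM in N6L and was not called (adjusted p = 0.114).

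The polysomal libraries of the same cultures had fewer calls, and none against the cytoplasm in direction. Of the 13889 genes, 1343 (9.67%) were called between N6L and NT polysomes, 835 higher and 508 lower. Called higher in both fractions were 586 genes, 29.1% of the cytoplasmic and 70.2% of the polysomal higher calls, and called lower in both were 383, 19.9% and 75.4%. No gene was called in opposite directions. Both fractions of a culture came from 1 lysate, so these overlaps are not independent evidence. The median polysomal change was 0.49 over the cytoplasmic higher calls and −0.43 over the lower calls.

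The lists are given here with their polysomal values. Immediate-early genes had a polysomal median of 1.32 with 19 of 26 called higher, cholesterol genes 1.09 with 22 of 27, and the chemokine list 0.59 with 10 of 31. The polysomal median was −0.33 for both classes of ribosomal proteins, with 1 lower call in each, −0.30 for complex I, and −0.05 for chromatin modifiers, with 1 higher and 4 lower calls. DNA replication genes were at −0.49 with 12 of 44 called lower. The difference between the cytoplasmic and the polysomal change was tested gene by gene as an interaction. It passed the limit in no gene with edgeR (smallest adjusted p = 0.555, 1074 genes with an unadjusted p under 0.05) or DESeq2 (1233 genes with an unadjusted p under 0.05). The edgeR number was 557 without N6L 2 and 568 without NT 4. These fits leave out that both fractions of a culture came from 1 lysate. With culture as a block in edgeR no gene passed either, but the smallest adjusted p was 0.196. In that fit 2996 genes had an unadjusted p under 0.05. A loss or gain of a call between the fractions is thus not shown to be a difference in any single gene. Without the filter on low counts 114 genes passed.

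**Figure D5:**
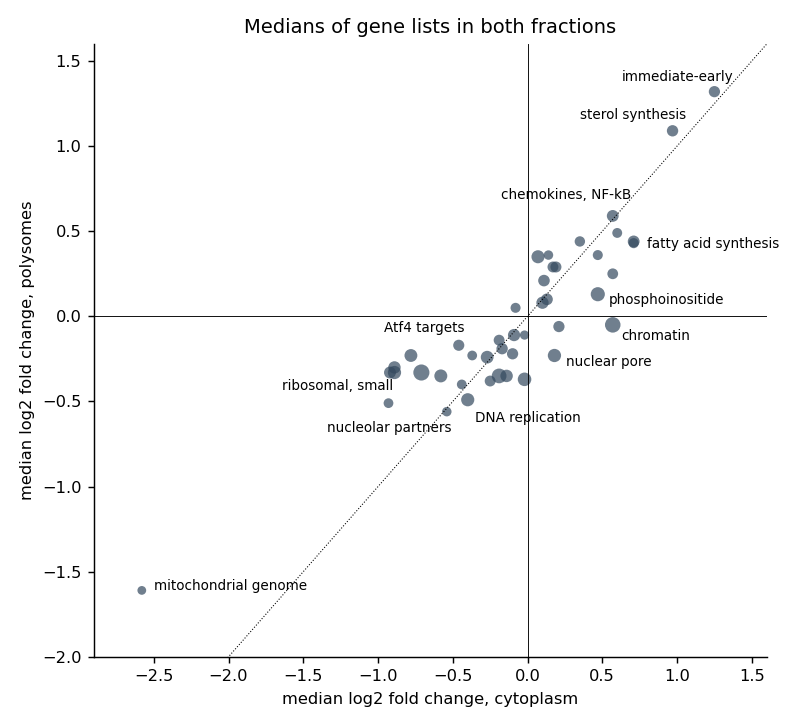
Each point is the median log2 fold change, N6L over NT, of a gene list in the cytoplasm (x axis) and in polysomes (y axis), larger for lists with more genes, with the dotted line where both are equal. Immediate-early genes lie at 1.25 and 1.32, chromatin modifiers at 0.57 and −0.05 and small-subunit ribosomal proteins at −0.92 and −0.33.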

How the data were processed

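Poly(A) RNA of the cytoplasmic and polysomal fractions had been sequenced from stranded libraries. The authors deposited raw counts per gene, not normalized, for 48 sets, 4 technical replicates of each of the 12 samples. The submitters' processing notes name bcl2fastq 2.18.0.12, STAR, HTSeq 0.5.3 and mm10. The annotation release, strand setting and handling of multimapping reads were not given in the sources used here. The tables list 50600 genes, and 50376 matched GENCODE vM21 (GRCm38), from which symbols, positions, lengths and GC content were taken.

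Technical replicates were summed, since their chi-square statistic per degree of freedom was 1.0175 to 1.0416, close to sampling noise. For 3 of them, of N6L cytoplasm 2, the title and the description disagree on the culture. They were kept there, where that statistic was 1.01 to 1.04, against 11.2 to 11.4 for N6L cytoplasm 1. Counts of all 12 samples were filtered with filterByExpr and scaled by TMM factors, and the quasi-likelihood test of edgeR 4.0.16 (R 4.3.3) was run with 1 mean per fraction and treatment and no block. P-values were adjusted by Benjamini-Hochberg over all 13889 genes tested. The common biological coefficient of variation was 0.197. DESeq2 1.42.0 was an alternative. The offset used splines of log transcript length and GC content with 4 degrees of freedom for 13867 genes. The script was checked on simulated counts. The simulated samples were independent and held no length gradient, so that check does not cover the gradient or the lysates shared between fractions. Cytoplasmic libraries held 21178243 to 44972333 counts, and the precision is lowest for genes under 1 CPM.

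The gene lists and the genes named were chosen with earlier results of these data known. The rule named the 12 largest and 12 smallest changes among called nuclear genes of at least 10 CPM without overlap between groups, up to 3 called members of a list in each direction at 1 CPM or more, Ncl, Npm1, Fbl, Larp1, Mtor, Eif3a and Eif3c, the 10 most abundant genes and the 3 smallest adjusted p-values in each direction, and the text uses a part of them. The keratins and other cell markers served to check the labels. The alternatives were DESeq2, RLE size factors, scaling by library size alone, filters of at least 10 counts in each cytoplasmic library or none, the 6 cytoplasmic libraries alone, technical replicate a alone, the 3 sets with conflicting labels left out, each library left out, blocks, and the offset. RefSeq promoter windows (GRCm38) were matched by symbol, and 12900 windows of 10092 tested genes were searched. Some genes of the lists are not reported here by name.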

Additional observations from a re-analysis of the deposited data

How the results depend on the processing

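Over the alternatives, the genes called between N6L and NT numbered 3222 to 5666 with all 6 libraries and 1820 to 3492 with 1 library left out (1820 without NT 4, 1879 without N6L 2, 2090 without N6L 3). The largest number, 5666, came from the fit of the 6 cytoplasmic libraries alone. Of 218 named genes that were called, 140 stayed called under each alternative and none changed sign. The replicate block, fitted on replicate numbers 1 and 2 that both groups share, gave 4737 calls. The correlations of same-numbered deviations were 0.228 and 0.0455, and that of NT 4 with N6L 3 was 0.205. The other pairs lay between −0.238 and 0.0222. Nothing in the labels ties the numbers together, and whether any of these samples were handled together cannot be told from these values. The difference between fractions had 114 calls without the filter on low counts and 0 with DESeq2, with a culture block and with each cytoplasmic library left out.

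Of the genes named, 8 that were not called changed sign. Over all genes, 3918 of the 3935 called kept their sign with the length and GC offset. Ncl was 0.04 with library size alone, 0.20 with the replicate block and −0.29 to 0.02 with 1 library left out. Larp1 was −0.35 with the offset and −0.01 to 0.18 with 1 left out. Eif3c was −0.03 with RLE, DESeq2 or the 6 libraries alone, −0.02 with technical replicate a, −0.29 with the offset and −0.15 to 0.14 with 1 left out. Eef1a1 was 0.10 with library size alone, 0.01 without the filter and −0.21 to 0.08 with 1 left out, and Eef2 was −0.07 with the replicate block and −0.05 to 0.31 with 1 left out. Atf4 was −0.03 with RLE, DESeq2 or the 6 libraries alone, −0.08 with the replicate block and −0.04 to 0.06 with 1 left out. Cdkn1a was −0.08 with the replicate block and −0.04 to 0.09 with 1 left out, and Malat1 was −0.08 to 0.35. The cause of these changes was not tested.

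With 3 cultures a group of 1 line, the counts near the threshold move with NT 4 and N6L 2. All levels are shares of a library, so a change in total mRNA per cell is not seen. Library size alone brought the list medians of Bcl2, EGF, heat shock, mitotic, polymerase I and III and Fanconi genes to 0 or above, and the offset brought those of nuclear pore, endoplasmic reticulum stress and matrix genes to −0.16, −0.14 and −0.22, and that of mTORC1 genes to 0.00.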

Other observations

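Some families were gathered by the start of their symbol and chosen after their values were seen. Of 322 tested genes named Zfp, mostly zinc finger transcription factors, 91 were called higher and 7 lower, against 14.5% and 13.8% of all genes, with a median of 0.50, which was 0.27 with the offset for length and GC content and 0.18 in polysomes. Of 46 ubiquitin-specific protease genes (Usp), 15 were called higher and 2 lower, with medians of 0.47 and 0.06 with the offset, and of 30 kinesin genes (Kif), 8 higher and 1 lower, with medians of 0.44 and 0.08. Histone genes (Hist) had 12 higher and 1 lower calls in 38 genes and a median of 0.28 that was larger with the offset, at 0.77. Replication-dependent histone mRNAs lack a poly(A) tail, so poly(A) libraries hold only a part of them.

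Processed pseudogenes, whose counts can come from reads of their parent genes, had 94 lower and 38 higher calls in 612 genes, with a median of −0.38.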
